A study of Mus musculus with 4 samples.

Results

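Mmp8, Mmp12 and Mmp13 encode secreted matrix metalloproteinases, zinc enzymes that cut proteins of the extracellular matrix. They are 3 of the 11820 genes counted in colonic macrophages and monocytes from 4 mice. These genes were selected on earlier readings of these same data, namely the stage that held their UMIs and the difference between diets, so their values by stage and by diet are given as a description with no p-value. The number of them called is given once, beside the share of all genes called, and nothing is read from it. Male C57/Bl6N mice, 6 to 7 weeks old at the start, had eaten chow (mice 9 and 11) or a coconut-based high-fat diet (HFD, mice 1 and 3) for 1 week. The label of the HFD gives 60% without saying of what. Cells of each mouse were loaded into a well of their own for droplet-based 3′ single-cell RNA sequencing, so n = 2 mice per diet. Live CD45+ Lin- CD11b+ CD24- cells that were CD64+ or Ly6C+ had been sorted from the colonic lamina propria, so the proportions of cells below describe this gate. The deposited table held 904 cells of chow mouse 9, 2002 of chow mouse 11, 966 of HFD mouse 1 and 1548 of HFD mouse 3. Between 3824228 and 7947893 UMIs (unique molecular identifiers, counted molecules) were counted per mouse, and the median cell held 3266 to 3926 UMIs. Of the barcodes, 23 occurred in more than 1 mouse.

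Blood monocytes that enter the colon lose Ly6C, gain MHC class II and then gain the complement component C1q as they become tissue macrophages. Metalloproteinases are made as inactive proenzymes, are activated by other proteases and are held in check by tissue inhibitors of metalloproteinases (TIMPs). MMP8, also called neutrophil collagenase, and MMP13, collagenase 3, cleave fibrillar collagens, whereas MMP12, the macrophage metalloelastase, is named for its action on elastin.

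The 3 genes lie in 1 cluster on chromosome 9 of the mouse genome (GRCm38, GENCODE M21 annotation), all on the plus strand. Mmp13 (ENSMUSG00000050578) spans chr9:7272514-7283331 with 10 exons, Mmp12 (ENSMUSG00000049723) spans chr9:7344381-7369499 and Mmp8 (ENSMUSG00000005800) spans chr9:7558456-7568485 with 10 exons. From Mmp13 to Mmp8 the annotation lists 6 protein-coding genes, all metalloproteinases. The other 3, Mmp1b, Mmp3 and Mmp10, were not analysed here, as the count table used had no row for them. The annotated end of Mmp12 overlaps Mmp1b on the opposite strand. RefSeq promoter windows (250 bases before to 50 after the transcription start, GRCm38.p6) were found for all 3 genes, with a pair of starts for Mmp12. They are shown because the genes differ in the letters of the AP-1 element, the binding motif of Fos and Jun proteins, whose transcripts are described further on. Capitals mark every match on either strand. The AP-1 element was searched as TGANTCA. The TATA box was searched as TATAAA. A core of the binding motif of PU.1, a myeloid transcription factor, was searched as GAGGAAGT. The windows are chr9:7558179-7558478 for Mmp8, chr9:7347124-7347423 for the downstream start of Mmp12 and chr9:7272264-7272563 for Mmp13, all on the plus strand.
Mmp8: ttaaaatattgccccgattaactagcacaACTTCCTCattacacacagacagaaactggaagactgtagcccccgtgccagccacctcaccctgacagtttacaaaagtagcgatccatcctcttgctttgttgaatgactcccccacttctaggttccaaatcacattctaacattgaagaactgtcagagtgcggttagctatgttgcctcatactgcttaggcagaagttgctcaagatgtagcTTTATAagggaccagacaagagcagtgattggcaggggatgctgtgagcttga
Mmp12: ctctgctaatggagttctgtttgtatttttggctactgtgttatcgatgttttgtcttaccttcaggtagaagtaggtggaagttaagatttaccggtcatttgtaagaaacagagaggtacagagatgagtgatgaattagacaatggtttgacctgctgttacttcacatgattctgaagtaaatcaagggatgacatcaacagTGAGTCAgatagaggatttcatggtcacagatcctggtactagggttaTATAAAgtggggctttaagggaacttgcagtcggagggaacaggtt
Mmp13: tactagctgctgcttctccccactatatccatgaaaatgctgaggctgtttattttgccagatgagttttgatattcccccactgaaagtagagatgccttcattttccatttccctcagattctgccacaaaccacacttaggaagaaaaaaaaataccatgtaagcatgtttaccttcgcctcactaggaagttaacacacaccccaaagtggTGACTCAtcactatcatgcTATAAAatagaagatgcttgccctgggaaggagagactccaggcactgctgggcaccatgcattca
The AP-1 letters began 35 bases before the start of Mmp13 and 44 bases before the downstream start of Mmp12, and were in neither the Mmp8 window nor the window of the upstream Mmp12 start (chr9:7344147-7344446). The TATA letters began 16 bases before the start of Mmp13 and 4 bases after the downstream start of Mmp12, and on the minus strand 3 bases before the start of Mmp8. Distances are from the RefSeq starts, and that of Mmp8, 7558429, lies upstream of its GENCODE gene start given above. The Mmp8 window and the upstream Mmp12 window held the PU.1 letters on the minus strand, beginning 221 and 88 bases before the start. Of all 32851 promoter windows of 300 bases, 7.81% held the AP-1 letters, 13.6% the TATA letters and 3.20% the PU.1 letters on either strand. A match describes the letters only, and binding was not measured.

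Each cell was placed in a stage from C1q, MHC class II and Ly6c2 alone. A cell was C1q-high from 24.1 UMIs of C1qa, C1qb and C1qc per 10000, MHC II-high from 141.6 UMIs of H2-Aa, H2-Ab1, H2-Eb1 and Cd74 per 10000, and Ly6c2+ from 2 UMIs. C1q-high cells were 764 and 1849 of the chow cells (84.5% and 92.4% of mice 9 and 11) and 458 and 652 of the HFD cells (47.4% and 42.1% of mice 1 and 3). Ly6c2+ MHC II-low cells numbered 47, 47, 215 and 245 in chow 9, chow 11, HFD 1 and HFD 3, the order of mice used for all values below. Ly6c2- MHC II-high cells numbered 28, 39, 141 and 295, and Ly6c2- MHC II-low cells 63, 51, 78 and 100. Ly6c2+ MHC II-high cells were too few on chow to be compared (2 and 16, against 74 and 256 on HFD). Marker genes not used for the gates were then compared between Ly6c2+ MHC II-low and C1q-high cells, summed over the 4 mice. Of the monocyte genes, Plac8 was at 11475 against 697.7 CPM (UMIs of the gene scaled to 1000000 UMIs in the sum), Chil3 at 9887 against 212.7 CPM and Ccr2 at 1009 against 330.01 CPM. Of the macrophage genes, Cd81 was at 96.2 against 2717 CPM, Mrc1 at 5.51 against 262.5 CPM and Adgre1 at 211.5 against 559.7 CPM. Fcgr1, which encodes the CD64 of the sort, went the other way, at 286.6 against 187.8 CPM. In Ly6c2- MHC II-low cells Plac8 was at 9382 CPM and Chil3 at 8569 CPM, nearer to the Ly6c2+ MHC II-low than to the C1q-high cells. B and plasma cell markers (Cd79a, Igha and Jchain) summed to 53283 and 37142 CPM in the Ly6c2+ MHC II-low sums of the chow mice, against 10721 and 8659 CPM on HFD. Cells with at least 100 Igha and Jchain UMIs per 10000 numbered 2, 1, 1 and 1 there, and none of them held Mmp8. Fibroblast markers summed to at most 24.2 CPM in C1q-high cells. Epithelial markers summed to 0, 279.2, 168.4 and 1014 CPM in Ly6c2- MHC II-low cells and to 0, 6.36, 4.45 and 674.9 CPM in Ly6c2+ MHC II-low cells, where HFD mouse 3 stood apart. Their part in the values of these stages was not tested.

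The genes divided along this sequence. Of the 442 Mmp8 UMIs in the table, 60.4% were in Ly6c2+ MHC II-low cells and 15.6% in C1q-high cells. By mouse, the Ly6c2+ MHC II-low cells held 33.3%, 28.6%, 75.5% and 53.7% of the Mmp8 UMIs. In chow mouse 11, with 28 Mmp8 UMIs in all, the Ly6c2- MHC II-low cells (35.7%) and the C1q-high cells (32.1%) each held more than that. Of the 4945 Mmp12 UMIs, 96.1% were in C1q-high cells, and of the 8883 Mmp13 UMIs, 98.9% were. By mouse, C1q-high cells held 99.2%, 98.9%, 76.6% and 90.05% of the Mmp12 UMIs and 99.4%, 99.4%, 95.4% and 94.8% of the Mmp13 UMIs. In HFD mouse 1, Ly6c2- MHC II-high cells held 61 of the 321 Mmp12 UMIs. In the plot of levels by stage, the mean of Mmp8 is highest in the MHC II-low stages, and those of Mmp12 and Mmp13 in C1q-high cells.

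**Figure D1:**
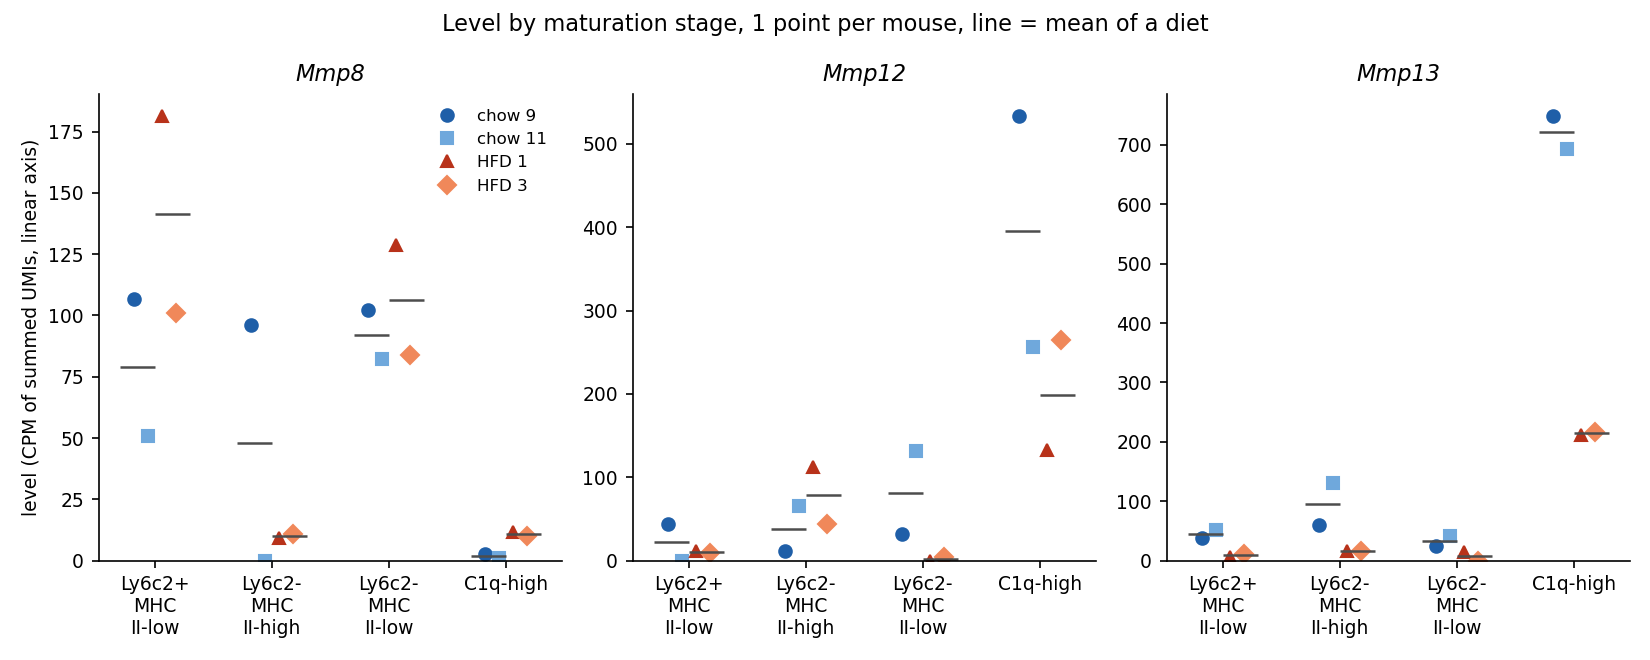
Level of each gene in CPM (y axis, linear and different for each gene) in 4 stages (x axis), with 1 point per mouse and a line at the mean of each diet. In C1q-high cells Mmp13 stands at 749 and 693 CPM in the chow mice and at 212 and 217 CPM in the HFD mice. The diets overlap for Mmp8 in Ly6c2+ MHC II-low cells and for Mmp12 in C1q-high cells. In the sum of all C1q-high cells the Mmp12 overlap rests on 1 cell of HFD mouse 3.

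Mmp8 was highest in cells with little MHC class II. In Ly6c2+ MHC II-low cells its level was 107, 50.9, 181 and 101 CPM, and 21.3%, 12.8%, 39.1% and 17.96% of these cells held at least 1 Mmp8 UMI. HFD mouse 1 was the highest, and HFD mouse 3 lay below chow mouse 9, so the diets overlapped. The spread within a diet was wide, with 78.9 ± 39.6 CPM on chow and 141.3 ± 56.8 CPM on HFD (SD, n = 2 each). In Ly6c2- MHC II-low cells the levels were 102, 82.1, 129 and 83.7 CPM, again with overlap. Where MHC class II was high, Mmp8 was sparse. Ly6c2- MHC II-high cells held 96.0, 0, 9.22 and 11.04 CPM, and the first value came from 8 UMIs in 2 cells. In the Ly6c2+ MHC II-high cells of HFD mice 1 and 3, 0 of 74 and 9 of 256 cells held a UMI, and the 0 allows a share of up to 4.05% for counting error. By its mean level, Mmp8 was highest in the MHC II-low pair in both diets, and the ranges of that pair overlapped each other. C1q-high cells had the lowest mean on chow, whereas on HFD their mean of 10.9 CPM lay beside the 10.1 CPM of Ly6c2- MHC II-high cells. In chow mouse 9 the few Ly6c2- MHC II-high cells were within the range of the MHC II-low stages.

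The log2 fold change of Mmp8, HFD against chow, was 0.72 (SE 0.41) in Ly6c2+ MHC II-low cells and 0.14 (SE 0.47) in Ly6c2- MHC II-low cells. Leaving out a mouse gave 0.25 to 1.35 in the former, lowest without HFD mouse 1 and highest without chow mouse 9. In the latter the value was -0.18 without HFD mouse 1, and -0.11 with both stage thresholds halved, so the sign in Ly6c2- MHC II-low cells was not stable. Of all genes tested in these stages, 0.47% and 1.13% were called at a false discovery rate (FDR) of 1%. Depth moved with the share of positive Ly6c2+ MHC II-low cells, since the median cell held 4419 UMIs in HFD mouse 1 and 3056 to 3239 in the other mice. After every cell was thinned to 2000 UMIs, leaving out 5, 2, 18 and 36 shallower cells, the shares were 14.3%, 11.1%, 21.8% and 15.8%, where HFD mouse 3 passed chow mouse 9 by a small margin. Over all cells Mmp8 reached 13.3, 3.52, 56.5 and 26.3 CPM, without overlap between diets, and 3.43%, 0.999%, 11.8% and 6.20% of cells were positive. These values contain the different proportions of the stages in each mouse, and more cells of a type and more RNA per cell cannot be told apart in them. Mmp8 did not reach the detection filter of 5% of cells over all cells, C1q-high cells or Ly6c2- MHC II-high cells, so it was not part of those fits.

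A low level of Mmp8 in C1q-high cells differed between the mice. It was 2.92, 1.19, 11.8 and 9.99 CPM, from 10, 9, 22 and 28 UMIs, and was higher in both HFD mice. The shares of positive cells were 1.18% and 0.379% (exact 95% intervals 0.540 to 2.22% and 0.152 to 0.778%) against 3.06% and 3.37% (1.68 to 5.08% and 2.13 to 5.06%). Intervals here cover counting error only. Other monocyte transcripts moved with it in the same cells. Plac8, abundant in Ly6C+ monocytes, was found in 14.3%, 19.8%, 85.8% and 90.8% of C1q-high cells, Chil3 in 6.94%, 13.0%, 51.7% and 60.4%, and Ly6c2 in 2.75%, 4.22%, 23.6% and 41.1%. In C1q-high cells without any Ly6c2 UMI, Mmp8 remained at 3.02, 1.26, 14.1 and 8.96 CPM. Per 100 Plac8 UMIs there were 5.26, 0.9504, 0.669 and 0.432 Mmp8 UMIs in C1q-high cells and 1.71, 0.658, 1.40 and 0.870 in Ly6c2+ MHC II-low cells. Per 100 Chil3 UMIs there were 13.2, 1.58, 2.81 and 1.48 in C1q-high cells and 2.0, 0.555, 1.67 and 1.03 in Ly6c2+ MHC II-low cells. Per 100 Ly6c2 UMIs there were 10.8, 3.64, 9.65 and 3.63 and, in Ly6c2+ MHC II-low cells, 5.80, 2.17, 10.3 and 4.08. The C1q-high ratio was thus the higher one in all 4 mice by Chil3, but in the chow mice alone by Plac8. By Ly6c2 the stages cannot be compared, because the Ly6c2+ gate itself required 2 UMIs of that gene. The C1q-high ratios of the chow mice rest on 10 and 9 Mmp8 UMIs. The part of free RNA and of cells close to the monocyte stage in this level was not tested.

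As MMP8 is also a neutrophil product, neutrophil genes were counted beside it. Of 10 neutrophil markers, 3 had a row in the table (S100a8, Csf3r and Mmp9), and the others were not analysed here. Among Ly6c2+ MHC II-low cells, S100a8 was found in 9 of 144 cells with Mmp8 (6.25%) and 17 of 410 without (4.15%). Csf3r, the receptor of granulocyte colony-stimulating factor, was found in 37 (25.7%) and 65 (15.9%). Mmp9 had no UMI in Ly6c2+ MHC II-low cells of any mouse. These counts were pooled over mice, and 84 of the 144 cells with Mmp8 came from HFD mouse 1. By mouse, the neutrophil markers summed to 62.9, 57.2, 159.2 and 67.9 CPM in this stage, highest in the mouse that was highest for Mmp8. Cells with Mmp8 were also deeper in every mouse, with medians of 3644, 3154, 4749 and 3456 UMIs against 2976, 3077, 3704 and 2951 in those without. The part of neutrophil transcripts and of depth was not tested.

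Mmp12 was a transcript of C1q-high cells, detected in a minority of them. Its level there was 534, 257, 132 and 265 CPM, and the diets overlapped, because HFD mouse 3 lay just above chow mouse 11. In the sum of all C1q-high cells this overlap rested on 1 cell of HFD mouse 3 with 153 Mmp12 UMIs. With the cell richest in Mmp12 left out in every mouse, an alternative chosen after seeing the data, the levels were 517.0, 247.1, 120.1 and 210.7 CPM and did not overlap. In C1q-high cells without a Ly6c2 UMI, with no cell left out, they were 530.9, 256.2, 151.7 and 385.5 CPM and overlapped. Over all C1q-high cells the shares of positive cells, 36.6%, 24.3%, 14.8% and 18.9%, did not overlap. At 2000 UMIs per cell they were 29.0%, 19.3%, 9.81% and 14.6%. Both chow mice differed from each other more than chow 11 from HFD 3, and the level was 395.3 ± 195.8 CPM on chow and 198.6 ± 93.6 CPM on HFD (SD, n = 2 each). The UMIs were concentrated in few cells. Of each mouse's cells with Mmp12, 32.9%, 37.1%, 53.8% and 49.7% held exactly 1 UMI of it. The 1% of cells with most Mmp12 held 19.2%, 22.6%, 51.4% and 57.5% of each mouse's Mmp12 UMIs. For comparison, the 1% of cells with most Mmp13 held 10.5%, 10.9%, 36.8% and 34.5% of the Mmp13 UMIs. Among C1q-low cells, Mmp12 was at 12.01, 65.1, 112 and 44.2 CPM in Ly6c2- MHC II-high cells, where HFD mouse 1 was highest and the diets overlapped. Among C1q-low MHC II-high cells of the HFD mice, those with a UMI of AA467197 (58 and 136 cells) held 169.0 and 89.4 CPM of Mmp12 and those without held 27.8 and 20.8 CPM, while each chow mouse had 1 such cell. The higher levels rested on 6 and 9 positive cells with 49 and 48 UMIs, and the shares of positive cells were close, at 10.3% and 6.62% with AA467197 and 6.37% and 5.06% without. In Ly6c2+ MHC II-low cells Mmp12 was at 44.0, 0, 11.1 and 8.96 CPM. In Ly6c2- MHC II-low cells it was at 31.9, 131, 0 and 4.65 CPM, from 5, 16, 0 and 1 UMIs, and 4 cells held the 16.

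The log2 fold change of Mmp12 was -1.13 (SE 0.38) in C1q-high cells and -1.86 (SE 0.37) over all cells, where its level was 481, 246, 83.9 and 147.6 CPM. Without chow mouse 11 the values were -1.57 and -2.26, without chow mouse 9 they were -0.50 and -1.31, without HFD mouse 1 they were -0.75 and -1.52, and without HFD mouse 3 they were -1.70 and -2.32. The direction was kept in each case and the size moved with every mouse.

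Mmp13 was detected in most C1q-high cells of the chow mice. Its level in C1q-high cells was 749, 693, 212 and 217 CPM, or 720.9 ± 39.8 CPM on chow and 214.4 ± 3.19 CPM on HFD (SD, n = 2 each). Of these cells, 59.4%, 56.0%, 21.4% and 23.3% were positive, and 48.6%, 48.2%, 18.5% and 16.9% at 2000 UMIs per cell. Mice of the same diet lay close together and the diets were far apart. Positive cells also held fewer UMIs on HFD, with 5.65, 5.04, 4.02 and 3.99 Mmp13 UMIs each. The log2 fold change was -1.90 (SE 0.13) in C1q-high cells. Over all cells the level was 674, 660, 108 and 114.6 CPM, the share of positive cells 51.8%, 52.8%, 11.8% and 11.8%, and the log2 fold change -2.80 (SE 0.11). The value over all cells contains both the level within C1q-high cells and the proportion of such cells.

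At an FDR of 1%, 10.5% of the 5063 genes tested were called in C1q-high cells and 16.2% of the 4948 tested over all cells. Of the members, 2 passed the filter on low values in each of these comparisons, and 1, Mmp13, was called in each. The genes were selected on these contrasts, so nothing is read from these counts. Without HFD mouse 3, 32 genes in all were called in C1q-high cells, and the log2 fold change of Mmp13 was -1.89.

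The remaining stages held little Mmp13, though more on chow. Ly6c2+ MHC II-low cells held 37.7, 50.9, 6.68 and 11.5 CPM, Ly6c2- MHC II-high cells 60.0, 130.2, 16.6 and 16.6 CPM, and Ly6c2- MHC II-low cells 25.5, 41.1, 14.9 and 0 CPM. Both chow mice lay above both HFD mice in each of these stages. The counts were small, with 6, 8, 6 and 9 UMIs in Ly6c2+ MHC II-low cells, and 12.8%, 17.0%, 2.33% and 3.67% of those cells were positive, almost all with 1 UMI. Whether these UMIs came from free RNA or from the cells themselves was not tested. The median depth of these cells, 3056 to 4419 UMIs, was near that of C1q-high cells (3782 to 4215). The log2 fold change was -2.40 (SE 0.66) in Ly6c2+ MHC II-low and -2.61 (SE 0.59) in Ly6c2- MHC II-high cells. With 1 mouse left out the value ranged from -2.81 to -2.02 in the former stage and from -3.06 to -1.91 in the latter. In the latter stage 1.28% of all genes tested were called.

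Along the C1q level, the genes took different paths, as the plot of positive cells by C1q level shows. Mmp8 was most frequent in the lowest C1q class. With under 10 C1q UMIs per 10000, 18.3%, 13.8%, 21.1% and 8.78% of cells were positive, and with over 200 C1q UMIs 0.923%, 0.335%, 1.53% and 2.21%. Mmp12 was at its highest level in the class of 100 to 200, with 592, 315, 142 and 483 CPM in 3 of 4 mice, while HFD mouse 1 was highest at 50 to 100 (209.6 CPM). The 483 CPM of HFD mouse 3 includes the cell with 153 Mmp12 UMIs. Above 200 Mmp12 was at 514, 212, 89.8 and 135 CPM. Mmp13 on chow rose to 868 and 855 CPM at 100 to 200 and was 703 and 608 CPM above 200. On HFD it was 156 and 207 CPM at 100 to 200 and 489 and 497.6 CPM above 200. The diets did not overlap in any of the 5 classes, and were nearest in ratio above 200, where 60.6% and 57.8% of chow cells and 40.5% and 47.8% of HFD cells were positive. Restricted to cells with at least 100 C1q UMIs per 10000, the log2 fold change of Mmp13 was -1.37 (SE 0.15), smaller than over all C1q-high cells. In C1q-high cells without a Ly6c2 UMI it was -1.53 (SE 0.14). Monocyte transcripts within the C1q-high gate moved with diet, as given for Plac8 above.

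**Figure D2:**
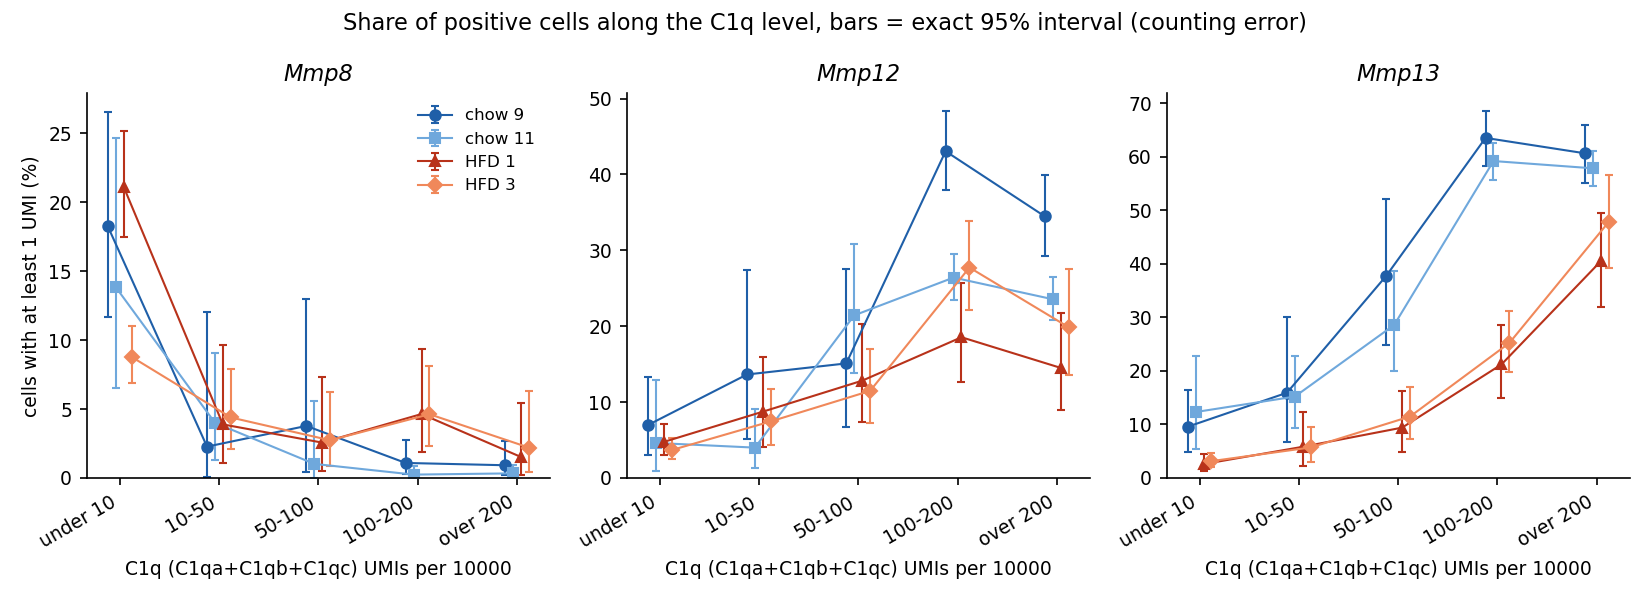
Share of cells with at least 1 UMI of each gene (y axis, percent, different range for each gene) in 5 classes of C1q level (x axis, UMIs per 10000), 1 line per mouse with exact 95% intervals for counting error. Mmp8 is found mostly below 10, and the Mmp13 lines of the 2 HFD mice, at 21.2% and 25.2% in the class of 100 to 200, rise to 40.5% and 47.8% above 200.

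C1q-high cells were further divided by Cd4, Lyve1 and Cd163, transcripts that mark long-lived or tissue-resident macrophages in the gut wall. Cells with Cd4 but neither of the others had the highest Mmp13 level in every mouse, at 862, 850, 596 and 290 CPM. Only 25 and 27 such cells came from the HFD mice, against 198 and 386 from the chow mice. Cells with Lyve1 or Cd163 held less on chow, 441 and 514 CPM from 41 and 176 cells, and no Mmp13 UMI was seen in the 7 and 6 HFD cells, too few to compare. The cells with none of these transcripts, 525, 1287, 426 and 619 in number, held 723, 659, 190 and 214 CPM. Mmp12 in the Cd4 cells was at 588, 309, 45.8 and 104 CPM, the HFD values from 5 and 14 UMIs. In cells with none of the 3 transcripts it was at 535, 257, 139 and 275 CPM, and HFD mouse 3 again lay above chow mouse 11. This HFD mouse 3 value includes the same cell with 153 Mmp12 UMIs. The lowest Mmp12 level on chow was in cells with Lyve1 or Cd163, at 225.6 and 118 CPM. The diets thus stood apart for Mmp13 among cells without these transcripts as well.

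**Figure D3:**
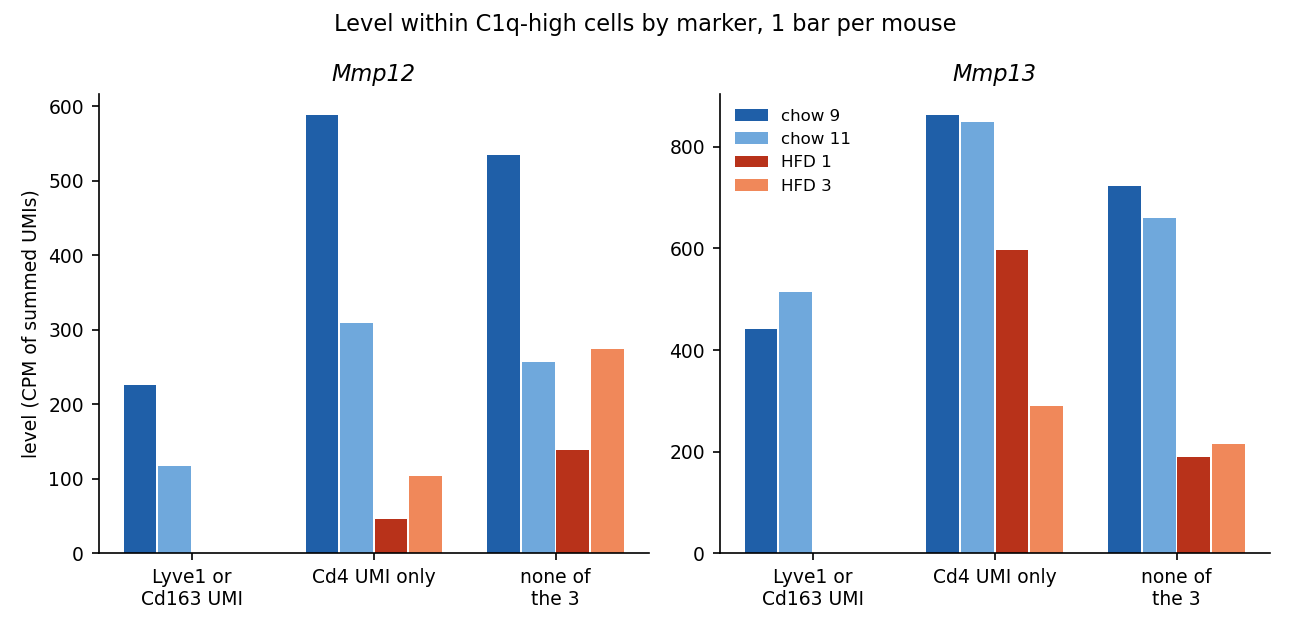
Level of Mmp12 and Mmp13 in CPM (y axis, from 0) in C1q-high cells grouped by detection of Lyve1 or Cd163, of Cd4 only, or of none of these (x axis), 1 bar per mouse. The HFD bars of the first group are at 0 and rest on 7 and 6 cells, and the Cd4 group holds the highest Mmp13 levels on chow, 862 and 850 CPM.

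Mmp12 and Mmp13 were often found in the same cells. Among C1q-high cells, 27.1%, 18.5%, 5.68% and 8.44% held both, against 21.8%, 13.6%, 3.18% and 4.398% given by the product of the separate shares. Mmp13 was found in 73.9%, 76.0%, 38.2% and 44.7% of cells with Mmp12 and in 51.0%, 49.5%, 18.5% and 18.3% of cells without. Cells with Mmp12 were also deeper, with medians of 4689 to 5642 UMIs against 3607 to 3830, and the part of depth was not tested. Mmp8 and Mmp13 shared 1, 1, 0 and 2 of the Ly6c2+ MHC II-low cells, or 2.13%, 2.13%, 0% and 0.816%, against 2.72%, 2.17%, 0.909% and 0.660% given by the product. In C1q-high cells they shared 2, 3, 4 and 7 cells, and Mmp13 was found in 22.2%, 42.9%, 28.6% and 31.8% of the few cells with Mmp8 and in 59.9%, 56.03%, 21.2% and 23.02% of those without.

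Across the 16 sums of 4 stages and 4 mice, the log2 levels of Mmp12 and Mmp13 had a Pearson correlation of 0.64, and Mmp8 had -0.64 with Mmp12 and -0.67 with Mmp13. These are descriptions over sums that share mice and libraries. The genes most like each were ranked by this correlation among 5556 genes. For Mmp13 they were Ms4a7 (0.96), a membrane protein of mature macrophages, Itpripl2 (0.93), Tnfaip3 (0.92), the NF-kB inhibitor A20, Cd81 (0.91), a tetraspanin, and Rgs10 (0.91), a regulator of G protein signalling. For Mmp12 the first 4 were Hepacam2 (0.86), Tbc1d10a (0.85), Zmynd15 (0.83) and Blvrb (0.83), biliverdin reductase B. For Mmp8 they were Ethe1 (0.93), a mitochondrial sulfur dioxygenase, Pygl (0.93), glycogen phosphorylase, Plcb1 (0.92), Card19 (0.92) and Rarg (0.92), a retinoic acid receptor.

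The remaining genes of the proteolytic system were taken from 6 lists. These were drawn up from general knowledge, but with earlier results of these data known. Their adjusted p-values and counts of calls are therefore no independent support. The C1q-high sums of the mice were compared by the quasi-likelihood method of edgeR, with Benjamini-Hochberg adjustment of p over the 5063 genes. The median log2 fold change of all of these genes was -0.02, and 10.5% of them were called. Of 20 further metalloproteinases 4 had a row, and 2 of them passed the filter. Mmp2, gelatinase A, fell from 46.4 and 38.9 CPM on chow to 11.3 and 8.21 CPM on HFD, a log2 fold change of -2.30 (SE 0.26, adjusted p = 0.000991). Mmp14, the membrane-bound protease that activates pro-MMP2, was at 98.6, 105.4, 186 and 173 CPM, a log2 fold change of 0.67 (SE 0.14, adjusted p = 0.0120), which did not reach the 1% threshold. Mmp9, gelatinase B, was below the filter, with 63 and 105 UMIs in C1q-high cells of the chow mice and 2 and 0 in those of the HFD mice. Mmp25, a membrane-anchored protease of leukocytes, was below it too, at 2.33, 2.12, 13.5 and 16.1 CPM. Gelatinases and Mmp13 were thus lower on HFD while the membrane-anchored pair had higher values, and for Mmp9, Mmp14 and Mmp25 this is a description of levels.

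Of 11 inhibitors, 4 were tested, with 2 lower, 1 higher and a median log2 fold change of -0.85. Timp2, an inhibitor of metalloproteinases that also takes part in the activation of pro-MMP2, fell by 1.44 on the log2 scale (SE 0.23, adjusted p = 0.00347). Cstb, the cathepsin inhibitor cystatin B, rose by 1.11 (SE 0.16, adjusted p = 0.00265). Timp1 had 2, 0, 5 and 2 UMIs in C1q-high cells and was not tested. Of 16 activating and shedding proteases and their receptors, 9 were tested, with 2 lower, none higher and a median of -0.10. These were Plau, the urokinase-type plasminogen activator (-1.29, SE 0.24, adjusted p = 0.00718), and Adam19 (-1.48, SE 0.16, adjusted p = 0.000734). The urokinase receptor Plaur (0.21, SE 0.25) and the proprotein convertase Furin (-0.14, SE 0.15) were not called. Of 9 lysosomal proteases, 7 were tested, with 2 lower, none higher and a median of -0.37, namely Ctsl, cathepsin L (-0.996, SE 0.14), and Ctsb, cathepsin B (-0.71, SE 0.12).

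Of 12 matrix proteins and receptors, 6 were tested, with 2 lower, none higher and a median of -0.65. Mrc1, the mannose receptor, which takes up collagen fragments, had a log2 fold change of -2.12 (SE 0.24), and Itgav, the integrin alpha V chain, of -1.13 (SE 0.22). Spp1, the matrix protein osteopontin, was at 54.3, 22.3, 160.4 and 97.4 CPM (1.65, SE 0.41, adjusted p = 0.0226) and was not called. Of 14 cytokines, receptors and transcription factors known to act on metalloproteinase genes, 12 were tested, with 5 lower, 1 higher and a median of -0.75. The AP-1 genes were among the lower ones. Jun was at 1620, 750.1, 302.6 and 219.8 CPM (-2.33, SE 0.35, adjusted p = 0.00278), Fos at 6529, 6868, 3583 and 3372 CPM (-1.09, SE 0.12), and Fosb (-1.09, SE 0.17) and Junb (-0.71, SE 0.13) were called as well. Fosl2 was not called (0.05, SE 0.14). Tnf fell by 1.09 (SE 0.18), Csf2rb, a chain of the GM-CSF receptor, rose by 0.83 (SE 0.13), and Il1b (-0.37, SE 0.13) was not called. In all, 16 of the 40 list genes tested were called in C1q-high cells, where 10.5% of all genes were. The markers within this gate moved too. Monocyte markers (8 genes) summed to 356.6, 546.9, 3000.2 and 3872 CPM, resident subset markers (4 genes) to 159.9, 172.2, 34.99 and 27.8 CPM, and macrophage markers (9 genes, C1q included) to 23958, 25472, 16921 and 15524 CPM. B and plasma cell markers summed to 2637, 3080, 136.7 and 102.8 CPM and dendritic cell markers (7 genes) to 51.4, 53.9, 185.2 and 168.1 CPM. Their part in these calls was not tested, except that without the cells rich in Igha and Jchain 17 list genes were called, beside 536 of all 5063 genes. In cells with at least 100 C1q UMIs per 10000, where 344 of all 5116 genes were called, the count of list genes was 11 of 39. In C1q-high cells without a Ly6c2 UMI, where 406 of all 4990 genes were called, it was 13 of 39. Without HFD mouse 1 the count was 2, and without HFD mouse 3 it was 0, with 23 genes at an unadjusted p under 0.05 by edgeR. Both of these fits leave 1 HFD mouse, so the spread between mice comes from the chow mice alone. The lower counts are therefore no measure of stability. DESeq2 on all 4 mice, which called 611 of all 5063 genes, called 17 list genes. Without chow mouse 9 or 11 the counts were 18 and 19.

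**Figure D4:**
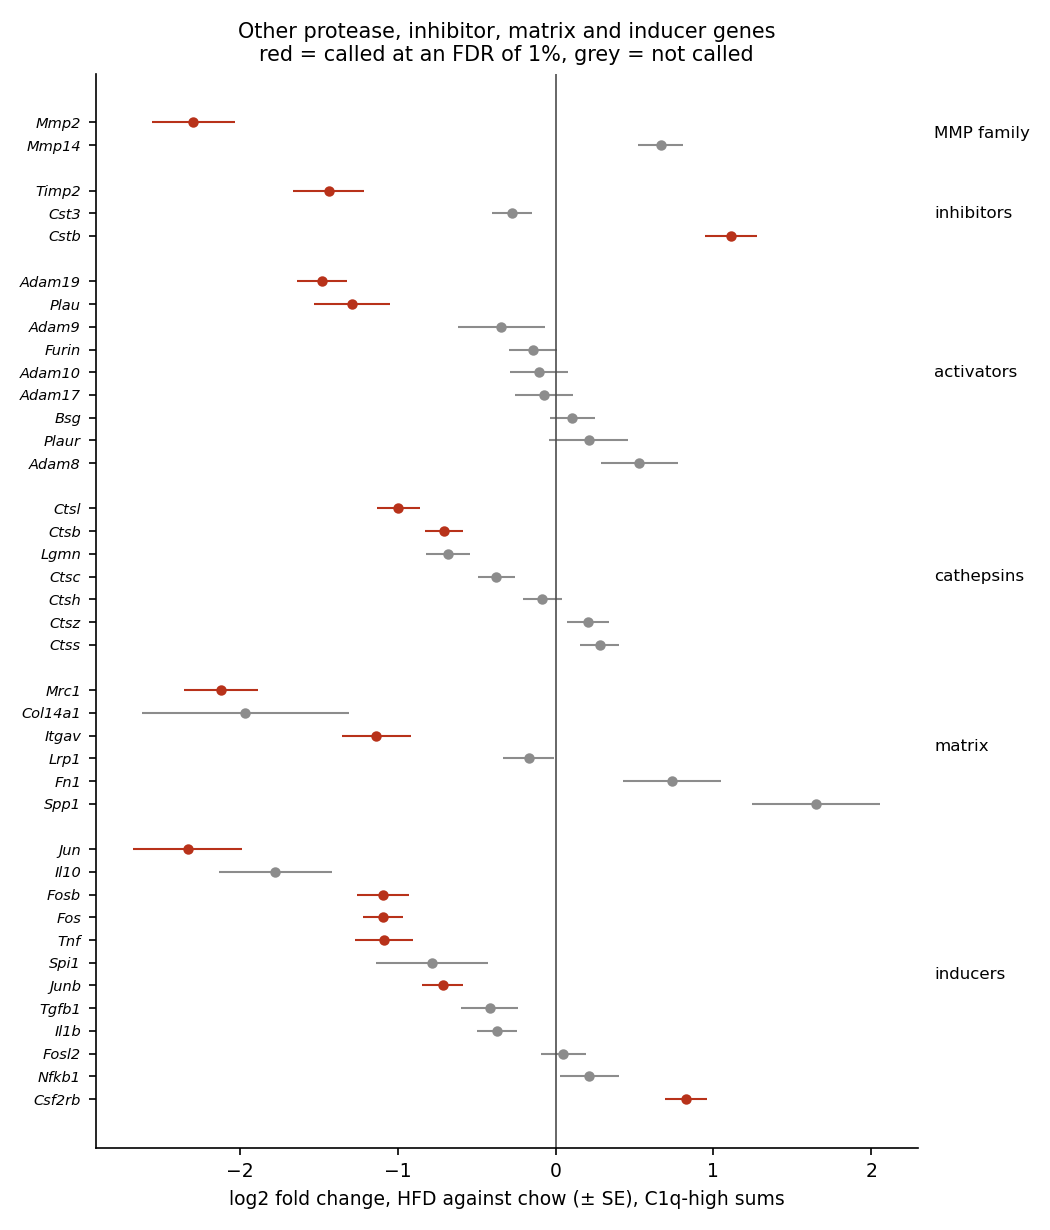
Log2 fold change of HFD against chow with its standard error (x axis) in C1q-high sums of 4 mice, for 39 genes of the 6 lists (y axis, grouped by list). Red points were called at an FDR of 1%. They include Jun at -2.33 and Mmp2 at -2.30 on the left and Cstb at 1.11 on the right.

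Outside the C1q-high cells fewer list genes passed the threshold, in sums of fewer cells. In Ly6c2- MHC II-high cells 2 of 33 were called, where 1.28% of all genes were. By edgeR 12 of the 33 had an unadjusted p under 0.05, beside 713 of all 4522 genes tested. The called genes were Jun (-1.55, SE 0.26, adjusted p = 0.00341) and the lysosomal protease Lgmn (-1.04, SE 0.19, adjusted p = 0.00868). Without HFD mouse 3 edgeR called 0, with 7 at an unadjusted p under 0.05, without HFD mouse 1 or chow mouse 9 it called 1, and with adjusted degrees of freedom 0, with 12 at that p. DESeq2 called 2. In the Ly6c2+ MHC II-low and Ly6c2- MHC II-low stages edgeR called 0 of 31 list genes each, and DESeq2 called 0 in both. By edgeR 6 and 9 of these list genes had an unadjusted p under 0.05, beside 550 of 4678 and 415 of 3903 genes tested. Over all cells 18 of 40 were called, where 16.2% of all genes were, and the count was 8 without HFD mouse 1 and 5 without HFD mouse 3. Of the 18, 3 had not been called in C1q-high cells, while Cstb was called only there. Il10 fell by 2.72 (SE 0.39) and Lgmn by 1.28 (SE 0.12), while Slpi, an inhibitor of neutrophil elastase, rose by 1.45 (SE 0.25). Slpi was mainly a transcript of the monocyte stage, at 478, 1882, 666 and 371 CPM in Ly6c2+ MHC II-low cells. In C1q-high cells it was at 3.21, 11.7, 32.8 and 58.5 CPM. Its log2 fold change was -1.32 (SE 0.42) in Ly6c2+ MHC II-low and -0.31 (SE 0.26) in Ly6c2- MHC II-low cells. In Ly6c2- MHC II-high cells it was 0.10 (SE 0.60), and Slpi was not called in any of these stages. The value over all cells contains the different proportions of the stages.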

How the data were processed

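Colonic lamina propria macrophages and monocytes of 4 mice were measured by single-cell RNA sequencing. The authors deposited raw UMI counts per gene and cell, made with Kallisto 0.46.0 and BUStools 0.39.2, after removing cells and genes of low quality and cells annotated as other types. These filters fix which genes and cells can be seen. No doublet caller was run here, and an alternative left out cells above the 95th percentile of UMIs. Cells were gated into 5 stages on C1q, MHC class II (thresholds by Otsu's method) and Ly6c2. Of the cells, 98 lay within a factor of 1.25 of the C1q threshold and 109 of the MHC II threshold, and 284 of 1697 C1q-low cells had exactly 1 Ly6c2 UMI. UMIs were summed per mouse and stage, and HFD was compared with chow by edgeR 4.0.16 (TMM, quasi-likelihood test, Benjamini-Hochberg, FDR of 1%) in R 4.3.3, for stages where each mouse had 20 or more cells, and for genes above 1 CPM in 2 of 4 sums with a UMI in 5% of cells. The fits were checked on simulated counts. DESeq2 1.42.0 was an alternative. Fits with 1 mouse left out take their spread between mice from the 2 mice of the other diet alone. Their counts of calls therefore do not measure stability. Shares of cells have exact Clopper-Pearson 95% intervals, which cover counting error only. A count of 0 allows 3 counts. Depth was 3824228 to 7947893 UMIs per mouse. The members and lists were chosen with earlier results of these data known. Named genes were the 3 members, list genes called in any comparison with up to 4 others of high level per list, and the 5 genes of most similar pattern for each member. Of the genes this rule names, 2 are not reported here.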

Additional observations from a re-analysis of the deposited data

How the results depend on the processing

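The direction of the difference between diets was kept under each alternative that gave a value for Mmp12 in C1q-high and all cells and for Mmp13 in the 4 comparisons that included it. Settings under which a gene failed the filter gave no value. For Mmp12 in C1q-high cells the log2 fold change ranged from -1.25 to -0.67 over 13 other settings. Of 87 values of 8 member differences under other settings, 80 moved by less than 1 SD between mice, as did 28 of 32 with a mouse left out. Some of the 87 could not move, because stage thresholds do not alter sums over all cells. Nor does the Ly6c2 threshold alter C1q-high sums. For Mmp13 in C1q-high cells, where that SD was small, the counts were 8 of 13 and 2 of 4. The log2 fold change of Mmp13 in C1q-high cells was -1.76 with stage thresholds doubled, -1.97 with them halved and -1.78 without cells above the 95th percentile of UMIs. Under settings chosen after seeing the data it was -1.37 for at least 100 C1q UMIs per 10000 and -1.53 without Ly6c2 UMIs. With 1 mouse left out it ranged from -1.96 to -1.83. Over all cells it was -2.70 without the filter on low counts. Mmp8 in Ly6c2- MHC II-low cells was at 0.52 with Ly6c2+ set from 1 UMI. The number of genes called in C1q-high cells was 344 for at least 100 C1q UMIs, 925 with the likelihood-ratio test, 910 without the filter and 32 to 739 with 1 mouse left out. Over all cells it was 1306, 1218 and 150 to 920 for the last 3 settings. In Ly6c2+ MHC II-low cells it was 35 with Ly6c2+ from 1 UMI, 12 in cells with 2000 UMIs, 81 with the likelihood-ratio test, 107 without the filter, 44 with thresholds doubled, 13 without immunoglobulin cells (chosen after seeing the data) and 2 to 16 with 1 mouse left out. In Ly6c2- MHC II-high cells it was 164 with the likelihood-ratio test, 186 without the filter and 38 with adjusted degrees of freedom (chosen after seeing the data). In Ly6c2- MHC II-low cells it was 20 with DESeq2, 24 with Ly6c2+ from 1 UMI, 23 in cells with 2000 UMIs, 76 without the filter and 28 without the deepest cells. With 1 mouse left out it was 0 to 62, the 0 by edgeR without either HFD mouse, where 228 and 198 genes had an unadjusted p under 0.05. The cause of these changes was not tested. No paired analysis was possible because the diets share no replicate number. Few cells on chow limit the C1q-low stages.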
